A study of Bos taurus with 35 samples.

Results

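The genes described here encode chromatin modifiers and remodellers in bovine *longissimus thoracis* (*LT*) muscle sampled after slaughter. They were selected on their measured change: all are on the study's list of genes that differed at 6, 24, 48 or 72 h *post-mortem* from 0 h, and were taken from it by the start of the symbol (KMT, KDM, SETD, SMARC, ARID, HDAC or PHF; KAT, CHD, BRD or ING followed by a digit). The rule gave 23 of the 27607 genes in the count table, and all 23 passed the filter on low counts, which left 14630 genes to test. No gene whose symbol starts with BRD or ING was among them. Of the 23 genes, 21 were on the list as downregulated and 2, *KAT2A* and *SMARCD3*, as upregulated. Among the 2887 named protein-coding genes listed at 72 h in the copy of the list at hand, 61.2% were downregulated. That copy holds 1999 genes downregulated at 72 h, where the paper counts 2256. Downregulated chromatin genes may thus be missing here, and the 61.2% may be too low. Of the 23 genes, 19 were listed at 72 h alone, 4 (*SETD7*, *KDM7A*, *KDM1B* and *HDAC9*) at 48 and 72 h, and 0 at 6 or 24 h.

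The samples were cores of *LT* muscle from the left carcass sides of 7 crossbred heifers of 525 to 635 kg at slaughter, for which no treatment is named other than chilling of the carcass. Each animal was sampled 5 times, at 0 h (45 min after death) and at 6, 24, 48 and 72 h in the drip cooler, so that each time point had 7 samples and the animal linked the 35 samples. RNA-Seq reads were counted per gene, and total counts ranged from 20568418 to 104275821 per sample (median 40133660). Levels are given as CPM, the reads of a gene scaled to a common library size, after TMM normalization, and a CPM is a share of the library and not an amount of RNA per cell. The skeletal muscle markers that could be named, 7 of a list of 15, summed to between 50235 and 60502 CPM at 0 h and to between 76350 and 113197 CPM at 72 h. Only genes on the study's list of changed genes could be named, so that these sums do not describe the muscle markers as a whole.

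DNA in the nucleus is wound around histones, and enzymes add or remove methyl and acetyl groups on the histone tails while ATP-driven remodellers slide or evict the nucleosomes. Methylation of H3K4 and acetylation by the KAT2 enzymes mark active promoters and enhancers, whereas methylation of H3K9, H3K27 and H4K20 is mostly linked to silent chromatin. In skeletal muscle, class IIa deacetylases hold MEF2 transcription factors in check, and SWI/SNF complexes that carry BAF60C, the product of *SMARCD3*, work with MYOD1 at muscle genes.

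The comparisons of each later time point with 0 h chose these genes, so their values against 0 h are a description and were not tested. All 21 genes on the list as downregulated were below 0 h at 72 h, by 0.59 to 2.46 on the log2 scale, with a median log2 fold change of -0.72. Over all genes tested the median was 0.01, and the central span from the 5th to the 95th percentile ran from -1.15 to 0.76. By the thresholds used, an FDR under 0.05 together with a fold change over 1.5, 15.4% of all genes tested were downregulated and 9.8% upregulated at 72 h. The fall was in all 7 animals for 19 of the 21 genes, against 22.9% of all genes, and in 6 of 7 for *CHD2* and *KMT2A*. The values at 72 h lay wholly below those at 0 h for 10 of the 21 genes, against 10.1% of all genes. The 2 upregulated genes were higher in 7 of 7 animals, against 21.3% of all genes, and the values of *SMARCD3* did not overlap between 0 and 72 h, against 7.9% of all genes. The smallest changes inside the fold threshold (0.58 on the log2 scale) were those of *SMARCA1* and *CHD2*, both -0.59, and 6015 genes of all kinds had an FDR below 0.05 but a smaller fold change.

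**Figure D1:**
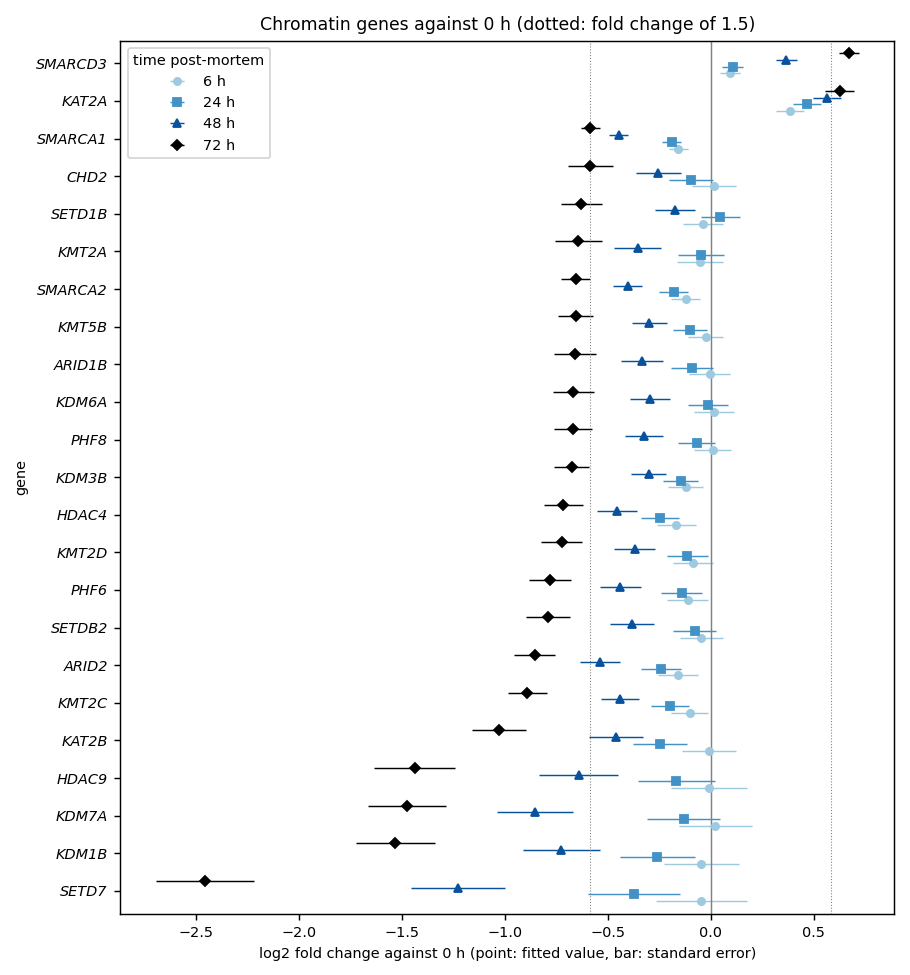
Log2 fold change against 0 h (x axis) of the 23 chromatin genes (y axis) at 6, 24, 48 and 72 h, with points for the fitted values, bars for their standard errors and dotted lines at a fold change of 1.5. The 21 downregulated genes reached -0.59 to -2.46 at 72 h, and *KAT2A* was at 0.39 by 6 h.

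Of the 7 lysine methyltransferases, all lower at 72 h, 4 (*KMT2A*, *KMT2C*, *KMT2D* and *SETD1B*) encode catalytic subunits of COMPASS complexes, which methylate H3K4. *KMT2C* (ENSBTAG00000024199) encodes an enzyme that acts at enhancers, and its lowest, median and highest values over the 7 animals were 57.0, 70.7 and 87.2 CPM at 0 h and 34.6, 36.8 and 48.5 CPM at 72 h. Its values at the 2 times did not overlap, and its log2 fold change was -0.89 (SE 0.09). *KMT2D* (ENSBTAG00000014429), the closely related enhancer enzyme, was at 62.3, 79.6 and 105 CPM at 0 h and at 42.3, 48.6 and 56.5 CPM at 72 h, again without overlap, with a log2 fold change of -0.73 (SE 0.10). *KMT2A* (ENSBTAG00000018093), the MLL1 enzyme, was at 13.9, 24.8 and 28.0 CPM at 0 h and at 12.4, 15.3 and 17.3 CPM at 72 h, with a log2 fold change of -0.64 (SE 0.11). Its ranges overlapped, and animal 104 had both the lowest value at 0 h and the highest at 72 h. *SETD1B* (ENSBTAG00000004172) was at 6.45, 9.20 and 14.3 CPM at 0 h and at 4.71, 5.81 and 7.09 CPM at 72 h, with some overlap and a log2 fold change of -0.63 (SE 0.10).

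The largest change of the 23 genes was that of *SETD7* (ENSBTAG00000003581), which encodes a monomethyltransferase of H3K4 and of several non-histone proteins. Its lowest, median and highest values were 79.1, 118 and 192 CPM at 0 h, 83.6, 120 and 173 CPM at 6 h and 63.3, 89.6 and 138 CPM at 24 h. They were 31.0, 48.7 and 95.7 CPM at 48 h and 11.5, 19.1 and 73.8 CPM at 72 h. The ranges overlapped at every time up to 48 h and no longer at 72 h, where the level was 5.50-fold lower than at 0 h (log2 fold change -2.46, SE 0.24). Animal 202 held the highest value at 72 h, and the next highest was 29.6 CPM.

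The other methyltransferases act on other residues. *KMT5B* (ENSBTAG00000001185), which encodes an H4K20 methyltransferase, went from 27.7, 36.2 and 42.8 CPM at 0 h to 16.0, 22.5 and 25.9 CPM at 72 h, without overlap, and its log2 fold change was -0.66 (SE 0.08). *SETDB2* (ENSBTAG00000007329), whose product is linked to H3K9 methylation, went from 5.23, 7.60 and 8.42 CPM to 3.28, 4.03 and 5.71 CPM, with a log2 fold change of -0.79 (SE 0.11). The *SETDB2* ranges overlapped between the lowest animal at 0 h (104) and the highest at 72 h (202).

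All 5 lysine demethylases were lower at 72 h, and 2 of them were among the 4 genes already listed at 48 h. *KDM1B* (ENSBTAG00000014608) encodes LSD2, a flavin-dependent demethylase of H3K4, and was at 15.1, 19.8 and 22.9 CPM at 0 h, at 6.44, 12.03 and 17.7 CPM at 48 h and at 2.72, 6.19 and 14.3 CPM at 72 h. Its values at 0 and 72 h did not overlap, and its log2 fold change was -0.73 (SE 0.19) at 48 h and -1.53 (SE 0.19) at 72 h. *KDM7A* (ENSBTAG00000003495), for a demethylase of H3K9 and H3K27, was at 8.36, 11.8 and 14.5 CPM at 0 h, at 3.84, 5.79 and 10.5 CPM at 48 h and at 2.25, 4.59 and 9.07 CPM at 72 h. Animal 202 was the highest at both later times and alone overlapped the 0 h range at 72 h, and the log2 fold change was -0.86 (SE 0.19) at 48 h and -1.47 (SE 0.19) at 72 h.

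The other 3 demethylase genes changed less. *KDM6A* (ENSBTAG00000003740), the H3K27 demethylase that sits in the KMT2C and KMT2D complexes, was at 37.5, 40.6 and 43.2 CPM at 0 h and at 19.2, 27.6 and 37.9 CPM at 72 h, with a log2 fold change of -0.67 (SE 0.10). *KDM3B* (ENSBTAG00000010063), for an H3K9 demethylase, was at 31.9, 35.05 and 39.3 CPM at 0 h and at 16.2, 22.5 and 32.0 CPM at 72 h, with a log2 fold change of -0.68 (SE 0.09). *PHF8* (ENSBTAG00000013289), for a relative of KDM7A that binds methylated H3K4 with a PHD finger, was at 8.24, 9.01 and 9.94 CPM at 0 h and at 4.56, 6.07 and 7.07 CPM at 72 h, with a log2 fold change of -0.67 (SE 0.09). The *PHF8* values did not overlap, while those of *KDM6A* and *KDM3B* overlapped in animal 202 alone at 72 h.

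The 2 acetyltransferase genes, for the paralogous enzymes GCN5 and PCAF that take turns in SAGA and ATAC complexes, moved in opposite directions. *KAT2B* (ENSBTAG00000000746), for PCAF, a coactivator of MYOD1, was at 90.3, 117 and 140 CPM at 0 h, at 81.8, 115 and 132 CPM at 6 h and at 65.7, 109 and 119 CPM at 24 h. It was then at 49.6, 90.0 and 115 CPM at 48 h and at 29.6, 55.3 and 97.2 CPM at 72 h, when it was lower in 7 of 7 animals with overlapping ranges and a log2 fold change of -1.03 (SE 0.13). *KAT2A* (ENSBTAG00000044019), for GCN5, was at 7.83, 10.3 and 12.6 CPM at 0 h, at 10.2, 14.9 and 17.0 CPM at 6 h and at 10.4, 13.3 and 20.05 CPM at 24 h. It was at 11.7, 14.9 and 22.3 CPM at 48 h and at 11.4, 15.6 and 21.8 CPM at 72 h. *KAT2A* was thus higher than at 0 h in 7 of 7 animals at each of the 4 later times, where 4.16% of all genes were so at 6 h, 7.36% after 24 h, 15% after 48 h and 21.3% after 72 h, although its ranges overlapped with that at 0 h every time.

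The time course of *KAT2A* differed in shape from that of the others of the 23 genes, as a description. Its log2 fold change was 0.39 (SE 0.07) at 6 h, 0.47 (SE 0.07) at 24 h, 0.56 (SE 0.07) at 48 h and 0.63 (SE 0.07) at 72 h, so that 61.6% of its change at 72 h was already present at 6 h. For the 21 downregulated genes the same share at 6 h had a median of 5.78%, with *SMARCA1* the highest at 26.9%, and for *SMARCD3* it was 13.98%. By 48 h the share was 90.1% for *KAT2A* and had a median of 49.6% for the 21 genes, from 27.7% in *SETD1B* to 76.3% in *SMARCA1*. An early rise was not particular to *KAT2A*. Of the upregulated chromatin genes outside the 23, *EZH2* was at 0.30 (SE 0.07) at 6 h and 0.75 at 72 h. At the same times *TAF10* was at 0.21 (SE 0.08) and 0.97, and *GPS2* at 0.20 (SE 0.07) and 0.74. *DPY30*, in contrast, was at 0.08 (SE 0.06) and 0.68, *PAGR1* at 0.06 (SE 0.07) and 0.67, and *MYOD1* at -0.01 (SE 0.09) and 0.68. These are examples, picked after their values were seen.

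**Figure D2:**
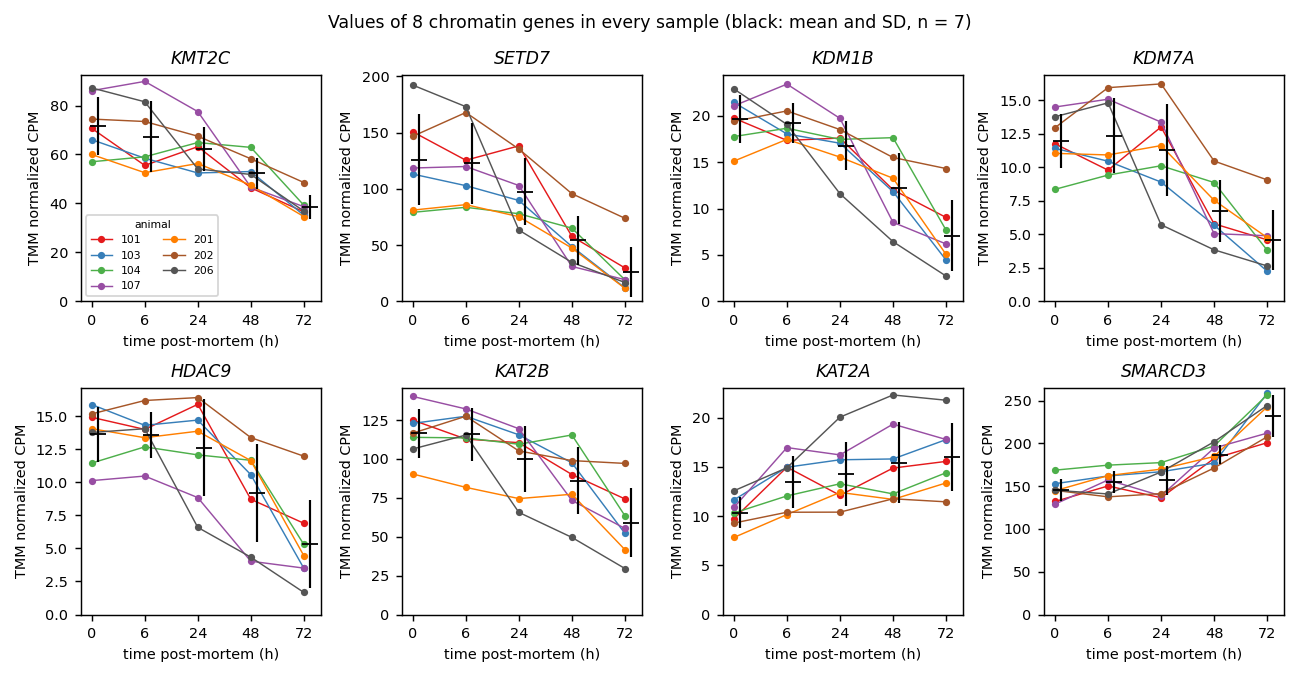
TMM normalized CPM (y axes, from 0) of 8 of the chromatin genes against time *post-mortem* in h (x axes), with a coloured line for each of the 7 animals and black bars for the mean and SD. *SETD7* fell to between 11.5 and 73.8 CPM at 72 h with animal 202 on top, while *SMARCD3* reached 201 to 258 CPM.

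Both deacetylase genes, *HDAC4* and *HDAC9*, encode class IIa enzymes, which shuttle between nucleus and cytoplasm and repress MEF2 targets. *HDAC9* (ENSBTAG00000003808) was at 10.1, 14.1 and 15.9 CPM at 0 h, at 4.03, 10.6 and 13.4 CPM at 48 h and at 1.67, 4.45 and 11.98 CPM at 72 h. It was lower at 72 h in all 7 animals with overlapping ranges, and its log2 fold change was -0.64 (SE 0.19) at 48 h and -1.44 (SE 0.20) at 72 h. *HDAC4* (ENSBTAG00000017764) was at 10.7, 11.6 and 14.8 CPM at 0 h, at 8.12, 9.69 and 10.4 CPM at 48 h and at 5.32, 7.34 and 10.2 CPM at 72 h. Its ranges at 48 and 72 h lay below that at 0 h, and its log2 fold change was -0.46 (SE 0.10) at 48 h and -0.72 (SE 0.10) at 72 h.

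The 4 genes for SWI/SNF subunits split, with the ATPase and both ARID subunits lower and the BAF60C subunit higher at 72 h. *SMARCA2* (ENSBTAG00000007494), for the ATPase BRM, was at 125, 142 and 168 CPM at 0 h and at 72.8, 94.4 and 123 CPM at 72 h, without overlap, and its log2 fold change was -0.66 (SE 0.07). *ARID1B* (ENSBTAG00000002728), for a subunit of the BAF form of the complex, was at 51.3, 58.4 and 67.5 CPM at 0 h and at 26.3, 36.6 and 55.5 CPM at 72 h, with a log2 fold change of -0.66 (SE 0.10). *ARID2* (ENSBTAG00000011087), for a subunit of the PBAF form, was at 8.65, 12.02 and 13.6 CPM at 0 h and at 5.06, 6.03 and 10.3 CPM at 72 h, with a log2 fold change of -0.86 (SE 0.10). In both ARID genes animal 202 had the highest value at 72 h and overlapped the 0 h range.

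*SMARCD3* (ENSBTAG00000014372) was at 129, 145 and 169 CPM at 0 h, at 138, 157 and 175 CPM at 6 h and at 136, 167 and 177 CPM at 24 h. It was at 171, 185 and 202 CPM at 48 h and at 201, 243 and 258 CPM at 72 h, so that the ranges at 48 and 72 h both lay above that at 0 h (3.11% of all genes at 48 h). Its log2 fold change was 0.37 (SE 0.05) at 48 h and 0.67 (SE 0.05) at 72 h. Without normalization factors, where the median of all genes was -0.16 at 72 h (0.01 with them), *SMARCD3* was at 0.50 and *KAT2A* at 0.45, both above 0 but under the fold threshold.

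The remaining remodellers were *SMARCA1* (ENSBTAG00000002292), for the ISWI ATPase SNF2L, and *CHD2* (ENSBTAG00000017776), for a chromodomain remodeller. *SMARCA1* was at 15.0, 16.8 and 17.8 CPM at 0 h, at 10.2, 12.2 and 13.6 CPM at 48 h and at 9.47, 10.8 and 13.5 CPM at 72 h, below the 0 h range at both later times. *CHD2* was at 11.6, 16.3 and 19.2 CPM at 0 h and at 7.58, 8.86 and 19.4 CPM at 72 h, with animal 202 above the highest value at 0 h. *PHF6* (ENSBTAG00000015196), for a nuclear protein with PHD-like zinc fingers, was at 7.31, 8.66 and 9.80 CPM at 0 h and at 3.93, 4.67 and 7.23 CPM at 72 h, without overlap and with a log2 fold change of -0.78 (SE 0.10).

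At 48 h the 21 downregulated genes had a median log2 fold change of -0.40, from -1.23 in *SETD7* to -0.17 in *SETD1B*, again as a description. The 4 genes listed at 48 h met both thresholds there (6.3% of all genes were downregulated by them), 19 of the 21 had an FDR below 0.05 with a fold change below 0 h (23.5% of all genes), and the exceptions were *CHD2* and *SETD1B*. The ranges of 2 of the 21, *HDAC4* and *SMARCA1*, lay below 0 h (3.34% of all genes). At 24 h the median was -0.14 and at 6 h -0.05.

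The 2 middle steps of the time course, 6 to 24 h and 24 to 48 h, do not compare the 0 or 72 h samples and were tested over all 14630 genes with edgeR's quasi-likelihood test, animal as block and Benjamini-Hochberg adjustment. The fit held all 35 samples, so that the dispersions, the animal terms and the normalization also drew on the 0 and 72 h samples. A fit of only the 14 samples of the 2 time points compared is given beside it. Between 6 and 24 h, 0 of the 23 genes had an FDR below 0.05, and 0 had an unadjusted p under 0.05. The count of genes that fell was also 0 with DESeq2, with limma voom and in the fit of 14 samples. In that fit 2 of the 23 genes had an unadjusted p under 0.05 by the quasi-likelihood test, counted whatever the direction. Over all genes, 0.588% were lower and 0.0342% higher at this step. The largest differences were -0.33 (SE 0.22, FDR 0.853, lower in 6 of 7 animals) for *SETD7* and -0.24 (SE 0.13, FDR 0.823, lower in 7 of 7 animals) for *KAT2B*, the lowest FDR of the 23. *KAT2A* differed by 0.08 (SE 0.07, FDR 0.859).

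Between 24 and 48 h the test was read for the 19 genes listed at 72 h alone, for which the 48 h samples entered the choice only in that the genes were not listed there. Of these, 7 fell and *SMARCD3* rose at an FDR below 0.05, where 9.84% of all genes fell and 9.56% rose. *SMARCD3* rose by 0.26 (SE 0.05, FDR 0.00245) in 7 of 7 animals, and *SMARCA1* fell by 0.26 (SE 0.05, FDR 0.00213) in 7 of 7. *SMARCA2* differed by -0.22 (SE 0.07, FDR 0.0267, 6 of 7 animals) and *ARID2* by -0.30 (SE 0.10, FDR 0.0356, 6 of 7). *PHF6* differed by -0.30 (SE 0.10, FDR 0.0411, 6 of 7), *KDM6A* by -0.28 (SE 0.10, FDR 0.0419, 6 of 7), *SETDB2* by -0.30 (SE 0.11, FDR 0.0431, 7 of 7) and *PHF8* by -0.26 (SE 0.09, FDR 0.0484, 5 of 7). With the fold threshold added 0 genes fell (1.88% of all genes). The choice of genes not listed at 24 or 48 h made such a fall unlikely beforehand, so that this 0 is no result about them. Without the animal block 0 genes fell as well, and without animals 101, 107, 201 or 202 the count of 7 became 1, 1, 2 or 4. *SMARCA1* and *SMARCD3* each kept an FDR below 0.05 in 17 of 18 alternatives, the exception being the fit without the block (FDR 0.107 and 0.103). In the fit of the 14 samples alone 10 genes fell, with an FDR of 0.0047 for *SMARCA1* and 0.00817 for *SMARCD3*.

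The 11 other genes did not pass at this step. *KMT2A* had the largest difference among them, -0.31 (SE 0.11, FDR 0.0534, and below 0.05 in 9 of 18 alternatives), and *CHD2* differed by -0.16 (SE 0.11, FDR 0.325). *KAT2A* differed by 0.10 (SE 0.07, FDR 0.334), and by -0.0017 without normalization factors. The direction was below 0 for all 21 downregulated genes, with a median of -0.26 that includes the 4 genes listed at 48 h. Among all genes chosen in the same way, downregulated at 72 h and not at 48 h, 526 of 1386 (38.0%) fell between 24 and 48 h with a median of -0.28, beside 7 of 17 chromatin genes. Of the 1056 genes upregulated at 72 h alone, 45.1% rose, beside 1 of 2 chromatin genes. The shares among the chromatin genes were thus near those of the genes chosen alike. The 4 genes listed at 48 h are given as values, -0.85 (SE 0.22) for *SETD7*, -0.72 (SE 0.18) for *KDM7A*, -0.48 (SE 0.19) for *HDAC9* and -0.47 (SE 0.19) for *KDM1B*.

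**Figure D3:**
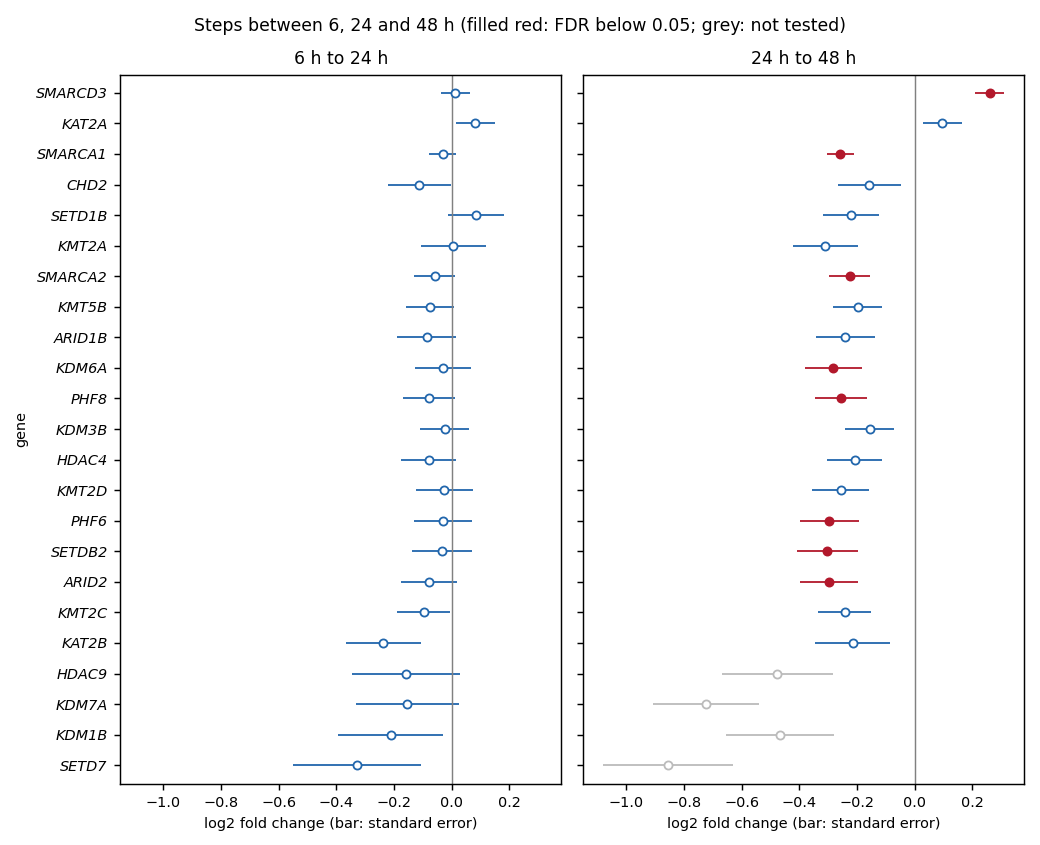
Log2 fold change (x axes) of the 23 chromatin genes (y axis) from 6 to 24 h and from 24 to 48 h, with points for fitted values, bars for standard errors, filled red for an FDR below 0.05 and grey where the choice of the genes used the 48 h samples. No gene is filled from 6 to 24 h, and 8 are filled from 24 to 48 h, with *SMARCD3* at 0.26 and the 7 others between -0.22 and -0.30.

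From 48 to 72 h, a step whose later samples chose the genes, the median of the 21 genes was -0.36, from -1.23 in *SETD7* to -0.14 in *SMARCA1*. *SMARCD3* differed by 0.30 (SE 0.05) and *KAT2A* by 0.06 (SE 0.07).

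The animals differed in how far the 21 genes had fallen. Summed over them, the level was 874 ± 104 CPM at 0 h and 465 ± 108 CPM at 72 h (mean ± SD, n = 7). In between it was 842 ± 108 CPM after 6 h, 775 ± 107 CPM after 24 h and 623 ± 99.9 CPM after 48 h. In animal 206 the median difference from 0 h over the 21 genes was already -0.57 at 24 h, with 21 of 21 genes lower, while it lay between -0.24 and -0.02 in the other animals. The count of 21 of 21 was not particular to animal 206. It was also reached in animal 103 at 24 h (median -0.24) and in animal 101 at 6 h (median -0.22). At 48 h animals 107 and 206 were at -0.79 and -0.76, and animal 104 was at 0.03 with 7 of 21 genes lower. At 72 h the medians ran from -1.12 in animal 206 to -0.40 in animal 202, with 20 or 21 genes lower in every animal. Animal 202 held the highest value at 72 h for 17 of the 21 genes, and animal 206 the lowest for 10. The median of all genes tested stayed between -0.03 and 0.05 in every animal and time. TMM normalization holds it near 0, so that it is no separate result. In the paper, the mean RNA integrity number was slightly lower at 48 and 72 h than at the earlier times. Time and RNA integrity thus changed together, and the part of RNA integrity in these values was not tested.

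**Figure D4:**
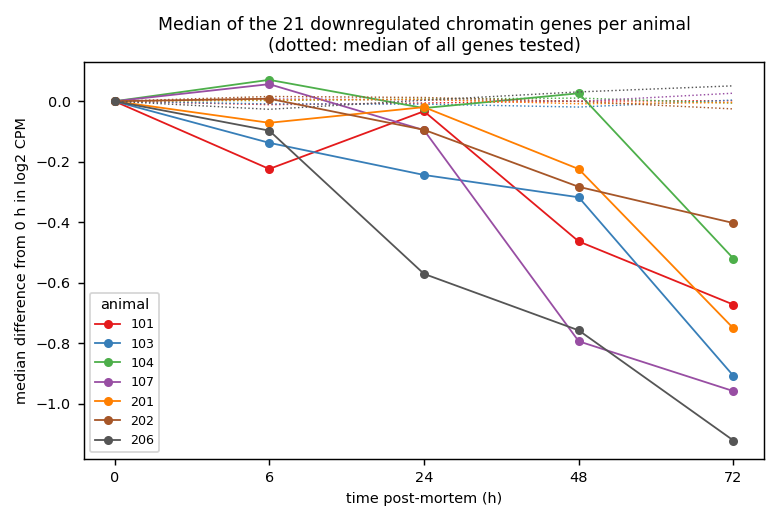
Median difference from 0 h in log2 CPM over the 21 downregulated chromatin genes (y axis) against time *post-mortem* in h (x axis), with a line for each animal and dotted lines for the median of all genes tested. Animal 206 was at -0.57 by 24 h, animal 104 was at 0.03 at 48 h, and all 7 animals were between -1.12 and -0.40 at 72 h.

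The wider chromatin machinery was taken from lists of 296 symbols in all. Symbols were known only for genes on the study's own list of changed genes, so that every one of the 61 listed genes that could be named and tested, the 23 above included, had been chosen for a change, and the counts carry no independent evidence of direction. At 72 h, 49 of the 61 were downregulated and 12 upregulated, with a median log2 fold change of -0.70. Over all genes tested, 15.4% were downregulated and 9.8% upregulated. Among the 2887 named protein-coding genes listed at 72 h in the copy of the study's list at hand, 61.2% were downregulated. That copy leaves out part of the genes downregulated at 72 h, so that the 49 and the 61.2% may both be too low. The difference between these shares was not tested. Without normalization factors the split was 49 and 2. At 48 h 8 were downregulated and 0 upregulated, where 6.3% and 2.96% of all genes were. By an FDR below 0.05 with any fold change, 44 were lower and 11 higher, where 23.5% and 21.9% of all genes were. Of the 38 that are not among the 23 genes, 28 were downregulated and 10 upregulated at 72 h.

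The genes named by role had all been chosen for a change, so that only their direction and size are described. By role, the partners of the methyltransferases and acetyltransferases were mixed. Of 5 named COMPASS partners, 3 were upregulated, with *DPY30* at 0.68 and *PAGR1* at 0.67, and 2 downregulated, *HCFC2* at -0.70 and *RBBP5* at -0.67. Of 4 SAGA and ATAC partners, *TAF10* was upregulated at 0.97 and 3 were downregulated, with *TADA2B* at -0.91 and *SUPT7L* at -0.68. Of the further acetyltransferases, *EP300* was at -0.71 and *NCOA3* at -0.70.

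Among the 11 named methyltransferases 10 were downregulated, and the exception was *EZH2* at 0.75, which encodes the H3K27 methyltransferase of Polycomb. *SMYD1*, for a methyltransferase of striated muscle, was at -1.39 and *SUV39H2*, for an H3K9 methyltransferase, at -0.89. Of 7 Polycomb genes 6 were downregulated, with *PHC3* at -0.98 and *PCGF5* at -0.96. All 5 named demethylases of a list of 22, both named ARID genes of 10 and all 3 named readers of 33 were downregulated. Of these, *BRPF3* at -0.59 was the one not described above, and *PHF8* is counted both as demethylase and as reader.

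Among partners of the deacetylases, 4 of 5 were downregulated, with *TBL1XR1* at -1.21 and *GATAD2B* at -0.94, and *GPS2*, for a subunit of the NCoR complex, was upregulated at 0.74. The third named deacetylase, *SIRT2*, was at 0.64. Of 6 SWI/SNF genes 5 were downregulated, with *BCL7A* at -0.85 and *DPF3* at -0.78, and of 5 ISWI, CHD and INO80 genes 4 were, with *INO80D* at -0.85 and *CECR2* at -0.71, while *ATRX* was at 0.62. For DNA methylation, *TET1*, for an enzyme that oxidizes methylcytosine, was at -1.37 and *UHRF1*, a partner of the maintenance methyltransferase, at 0.77. Of the muscle partners, *MYOD1* was upregulated at 0.68, and *SIK2*, for a kinase of class IIa deacetylases, was at -1.27 and *TCF12*, for a partner of MYOD1, at -0.73.

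At the step from 24 to 48 h, the 34 of these 38 genes that were listed at 72 h alone held 24 downregulated and 10 upregulated genes. Of them, 13 fell and 7 rose at an FDR below 0.05, where 9.84% of all genes fell and 9.56% rose, and where 38.0% and 45.1% did so among all genes chosen alike at 72 h. They had been chosen for their change at 72 h, and the difference between these shares was not tested. *DPY30* rose by 0.30 (FDR 0.00253), *PAGR1* by 0.31 (FDR 0.00393) and *SIRT2* by 0.28 (FDR 0.0032), whereas *EZH2* differed by 0.15 (FDR 0.138). From 6 to 24 h the lowest FDR of the 38 was 0.554.

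Markers of other cells moved over the same hours. All 13 named adipocyte markers of a list of 15 were downregulated at 72 h, and their sum went from between 648 and 2106 CPM at 0 h to between 292 and 466 CPM, with *LEP* at 0 in 2 samples and *ADIG* in 3 at 72 h. All 7 named macrophage markers of 11 were downregulated (47.1 to 155 CPM at 0 h, 16.0 to 53.0 CPM at 72 h), as were the 2 named fibroblast markers of 9 (74.7 to 169 CPM and 33.2 to 87.2 CPM). All 10 named T and NK cell markers of 15 were upregulated (8.64 to 15.5 CPM and 18.2 to 24.0 CPM), as was the 1 named satellite cell marker of 4 (3.36 to 11.6 CPM and 6.35 to 19.7 CPM), and 6 of the 7 named muscle fibre markers were upregulated and 1 downregulated. The 2 named erythroid markers of 5 were both upregulated at 48 h, with a median log2 fold change of 4.86 and a sum of 0.126 to 72.1 CPM, and not called at 72 h (0.0520 to 3.59 CPM at 0 h, 0.152 to 5.90 CPM at 72 h), and 0 of 9 endothelial markers could be named. These named markers too were chosen as changed genes, and their part in the changes of the chromatin genes was not tested. In bulk muscle, fewer cells of a type and less RNA per cell cannot be told apart.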

How the data were processed

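The authors trimmed the reads with Trimmomatic (version 0.39), mapped them with STAR (2.7.0f) to ARS-UCD1.2 and counted them per gene with featureCounts (1.6.4), and deposited the raw counts (whole reads for every gene in each sample). Their methods describe sense-strand counts, although the printed counting options name no strand. The deposited counts are labelled as those of the reverse strand. Their lowest and highest totals, 20568418 and 104275821, round to the range that the paper gives for sense-strand reads. Whether overlapping genes share reads was not tested. Neither positions nor lengths of genes were used, so that levels were not compared between genes. Every column of the table was used. Gene symbols came from the study's list of DE genes, of which a shortened copy with 3640 gene IDs was at hand, 3106 of them with a symbol; no value was taken from it. For genes downregulated at 72 h the copy has 1999 rows, where the paper counts 2256. Genes that it leaves out or does not name were not analysed here by name, and no paralog of the 23 genes beyond those genes could be named.

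The filter, normalization and animal block followed the study's methods, which name a negative binomial model in edgeR without naming the test. Used here were edgeR (4.0.16, R 4.3.3), filterByExpr with time point as group (minimum count 10), TMM normalization (factors 0.846 to 1.11), animal as block and, as a choice made here, the quasi-likelihood test over all 35 samples, with Benjamini-Hochberg adjustment over 14630 genes. The threshold was an FDR below 0.05, with a fold change above 1.5 against 0 h. Log2 values per sample used a prior count of 2, and standard errors come from the fit. Counts of the 23 genes were between 40 and 20580 per sample. The scripts were tested on simulated data. DESeq2 (1.42.0), limma voom (3.58.1), other normalizations, filters, thinned counts, fits without the block and without each animal were tried as alternatives.

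The animal pairs the samples, since those with the same number come from 1 carcass. Deviations from the time point means had a median r of 0.58 between samples of an animal (0.29 to 0.77, 70 pairs) and of -0.12 between animals (525 pairs). The members and lists were chosen with earlier results of these data known. Named genes are all 23 members and, per chromatin list and direction at 72 h, the 2 other genes with the largest log2 fold change at a mean of at least 1 CPM. *KAT2A*, *CHD2* and *KMT2A* are singled out at some steps after their values were seen. So are the list genes named at 6 h or from 24 to 48 h and the markers at 0.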

Additional observations from a re-analysis of the deposited data

Results flagged for a closer look

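Of the 115 sets of 7 values (23 genes at 5 times), 11 had a highest or lowest animal whose gap to the next took more than 0.568 of the range of the set. Chance alone gives about 1 in 20 such sets, and sets of 1 animal or gene are not independent. At 72 h animal 202 stood above the others for *SETD7* (73.8 CPM, next 29.6), *KDM7A* (9.07, next 4.89), *KMT2C* (48.5, next 39.3), *ARID2* (10.3, next 6.84) and *CHD2* (19.4, next 11.9). Animal 107 stood above the others for *KMT5B* at 6 h (47.0 CPM, next 36.4) and 24 h (46.6, next 35.3) and for *SETD1B* at 6 h (15.6, next 10.4) and 24 h (16.2, next 9.94). Animal 206 was the lowest for *KMT5B* at 48 h (21.6 CPM, next 29.3), and animal 201 for *KAT2B* at 6 h (81.8 CPM, next 113). Without animal 202 the median of the 21 downregulated genes at 72 h was -0.79 in place of -0.72, and the causes of these values were not tested.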

How the results depend on the processing

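Against 0 h at 72 h no alternative turned a direction. In 387 of 414 refits the 23 genes kept their side of the thresholds, and in 27 they fell below the fold threshold, most often *SMARCA1* and *CHD2*; without animal 206, 16 of the 21 genes were called. The number of genes falling from 24 to 48 h, 7, was 15 without normalization factors and 3 without a filter. It was 0 without the animal block, so that it rests on the pairing of samples by animal. With 1 animal left out it ran from 1 to 9. It was also 0 with the fold threshold added, which the choice of genes not listed at 48 h made likely beforehand. At that step *KAT2A* turned to -0.0017 without normalization factors. Of the chromatin lists, 8 genes were downregulated at 48 h, 14 without normalization factors, 44 by FDR alone and 6 to 13 with 1 animal left out (13 without animal 104); 0 were upregulated there, 1 with upper quartile factors, 11 by FDR alone and 0 to 1 with 1 animal left out. At 72 h 12 were upregulated, 2 without normalization factors. The other counts, and the medians of the lists at 72 h and of the 21 genes from 48 to 72 h, moved by less than their limits. From 6 to 24 h the count was 0 in every alternative. Without the block the counts at 72 h were 46 lower and 11 higher. The causes of these shifts were not tested. In counts thinned to the smallest library *KAT2A* stood at 0.54 at 72 h, under the fold threshold, and *PHF6*, *PHF8* and *SETDB2* no longer passed from 24 to 48 h.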
